A study of Mus musculus with 10 samples.

Results

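T cells were picked from single-cell RNA sequencing libraries of the old mouse inner ear by the transcripts they held. A barcode was kept as a cell with at least 200 genes, at least 1000 unique molecular identifiers (UMIs, each counting 1 transcript) and less than 25% mitochondrial UMIs. A kept cell was called a T cell if at least 2 of the 5 genes Cd3d, Cd3e, Cd3g, Trac and Trbc2 had a UMI, if Cd79a, a B cell receptor gene, had none, and if fewer than 3 genes each of a macrophage set (C1qa, C1qb, C1qc, Cx3cr1, Csf1r) and of a hair cell set (Myo6, Myo7a, Pou4f3, Tmc1, Kncn, Gfi1) had one. This gave 397 T cells of 17696 kept cells (2.24%). Since these transcripts chose the cells, a T cell level set against that of other cells is a description here and was not tested.

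Both groups were wild-type CBA/J mice of both sexes, labelled 22 months old and differed in the organ alone: the sensory epithelium of the cochlea, which serves hearing, or of the vestibular organs, which serve balance. Each library was a pool of 7 to 8 mice, so that a library is the replicate and single mice cannot be told apart. Replicates 1, 3, 4 and 5 of each organ were used, and replicate 2 was set aside because it held the cells of replicate 1 again: all 20 T cell barcodes of cochlea replicate 1 and all 3 of vestibule replicate 1 were in it. Young mice were not analysed here.

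T cells recognise antigen through a receptor that joins a variable pair of chains, either alpha and beta or gamma and delta, to the invariant CD3 chains that signal into the cell. Alpha beta T cells usually carry CD4 or CD8, coreceptors that bind the molecules presenting the antigen, and many circulate between blood and lymph nodes. Most gamma delta T cells carry neither coreceptor, and several families of them settle in skin and mucosa, where some make the cytokine interleukin 17.

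The genes of 3 CD3 chains lie together on chromosome 9, where the start sites of Cd3g (minus strand) and Cd3d (plus strand) face away from each other at a distance of 1355 bases, with the start of Cd3e (minus strand) 27841 bases from that of Cd3d. The chemokine receptor gene Cxcr6 lies on the same chromosome. The 250 bases before the RefSeq start site of each (build GRCm38.p6) are shown because the 4 genes were all among the 6 highest by their level over other cells. Capitals mark matches, on either strand, to motifs of factor families known in lymphocytes. The RUNX motif was searched as TGTGGT. The ETS motif was searched as AGGAAG. For the E-box, which may overlap the others, the letters were CAGNTG. For GATA factors they were AGATAA.
Cd3g, chr9:44980432-44980681, minus strand: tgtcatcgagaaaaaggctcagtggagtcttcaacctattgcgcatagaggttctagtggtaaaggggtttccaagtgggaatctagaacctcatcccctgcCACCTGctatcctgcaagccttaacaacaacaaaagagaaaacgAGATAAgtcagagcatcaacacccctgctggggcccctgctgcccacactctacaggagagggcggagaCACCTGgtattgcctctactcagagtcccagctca
Cd3d, chr9:44981536-44981785, plus strand: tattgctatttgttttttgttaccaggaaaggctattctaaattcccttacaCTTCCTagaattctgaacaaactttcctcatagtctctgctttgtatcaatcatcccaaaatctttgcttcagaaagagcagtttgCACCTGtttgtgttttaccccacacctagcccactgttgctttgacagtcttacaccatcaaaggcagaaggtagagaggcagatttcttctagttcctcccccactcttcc
Cd3e, chr9:45009612-45009861, minus strand: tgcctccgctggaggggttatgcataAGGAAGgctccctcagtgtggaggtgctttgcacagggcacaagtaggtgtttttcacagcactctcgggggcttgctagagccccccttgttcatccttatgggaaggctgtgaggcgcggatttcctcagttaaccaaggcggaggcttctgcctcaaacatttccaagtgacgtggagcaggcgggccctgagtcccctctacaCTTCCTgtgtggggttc
Cxcr6, chr9:123806227-123806476, plus strand: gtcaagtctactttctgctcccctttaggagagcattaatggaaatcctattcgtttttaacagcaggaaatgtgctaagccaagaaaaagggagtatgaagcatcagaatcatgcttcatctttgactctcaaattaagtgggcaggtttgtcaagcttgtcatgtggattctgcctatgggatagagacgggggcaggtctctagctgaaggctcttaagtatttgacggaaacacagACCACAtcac
No motif was in all 4 windows. The E-box was in Cd3g at 2 positions and in Cd3d at 1, and in 44.8% of all 32536 promoter windows of this length. The ETS letters were in Cd3d and Cd3e, and in 29.6% of all windows. The RUNX letters were in Cxcr6 alone and in 14.0% of all windows, and the GATA letters were in Cd3g alone and in 9.97%. A match is a description of letters, not of binding.

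T cells were few and unevenly spread over the libraries. In the cochlea, replicates 1, 3, 4 and 5 held 20, 214, 5 and 11 of them, and in the vestibule 3, 86, 23 and 35. Replicate 3 of both organs thus gave 300 of the 397 (75.6%). The T cells of a library summed to between 15498 UMIs in vestibule replicate 1 and 556391 in cochlea replicate 3, which makes 1 UMI worth 64.5 CPM (counts per 1000000 UMIs, here those of a library's T cells summed) in the first and 1.80 in the second. A T cell had a median of 2170 UMIs and 985 genes, close to the 2526.5 UMIs of the macrophages and below the 4637 of the hair cells in the same libraries. Single T cells ran from 1006 to 43906 UMIs, with 9 over 10000, and a summed level weights each cell by its UMIs. No barcode was a T cell in more than 1 of the 8 libraries, but 1 T cell barcode of cochlea replicate 3 was among all barcodes of cochlea replicate 5, and 1 among those of vestibule replicate 4.

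Counts of cells by the rule's own genes describe the rule. Of the 412 kept cells with at least 2 of the 5 genes, 15 were left out, 8 for Cd79a, 4 for macrophage genes and 3 for hair cell genes. Just inside the threshold stood 36 T cells with exactly 2 of the 5 genes, while 186 had 4 and 92 had all 5. Just outside stood 293 kept cells with only 1. Among genes outside the rule, Bcl11b, a transcription factor of the T lineage, had a UMI in 47.1% of T cells, in 0.160% of macrophages and in no granulocyte or B lineage cell. Cxcr3, a chemokine receptor of activated T cells, had a UMI in only 12.3% of T cells. At this depth a cell without a UMI of it may still express it. UMIs assigned to Cd3d were also found in 51.6% of granulocytes (20.9% with each cell thinned to 1000 UMIs), against 0.265% for Cd3g and none for Cd3e. Whether they are expression or read assignment was not tested.

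The share of T cells did not differ between the organs beyond the spread of the libraries. Of the kept cells, T cells made up 3.50%, 4.22%, 0.719% and 1.18% in the cochlear libraries 1, 3, 4 and 5, and 0.346%, 1.58%, 0.940% and 2.09% in those of the vestibule. The exact binomial 95% interval, which covers counting error only, ran from 2.15% to 5.36% in cochlea replicate 1 and from 0.0714% to 1.01% in vestibule replicate 1. The organs overlapped, with 2 cochlear libraries above every vestibular one and the other 2 among them. The means were 2.40% ± 1.72 (SD, n = 4) and 1.24% ± 0.761 (SD, n = 4), a difference of 1.16 percentage points (exact permutation test over libraries, two-sided, p = 0.314, adjusted p = 0.55 over the 7 share comparisons). With single libraries left out, the difference ran from 0.559 points (without cochlea replicate 3) to 1.73.

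Among immune cells, the mean share of T cells was higher in the cochlea, by a difference that did not pass the test. They were 35.1%, 29.7%, 14.7% and 21.6% of the immune cells (T cells, macrophages, B lineage cells and granulocytes) in the cochlear libraries and 14.3%, 21.8%, 13.1% and 11.0% in the vestibular ones. Cochlea replicates 1 and 3 were above every vestibular library, while replicates 4 and 5 lay among them. The means were 25.3% ± 8.97 and 15.1% ± 4.67 (SD, n = 4 each), and the difference was 10.2 points (exact permutation test, two-sided, p = 0.0857, adjusted p = 0.35, where the smallest p that 4 against 4 libraries allow is 0.0286).

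**Figure D1:**
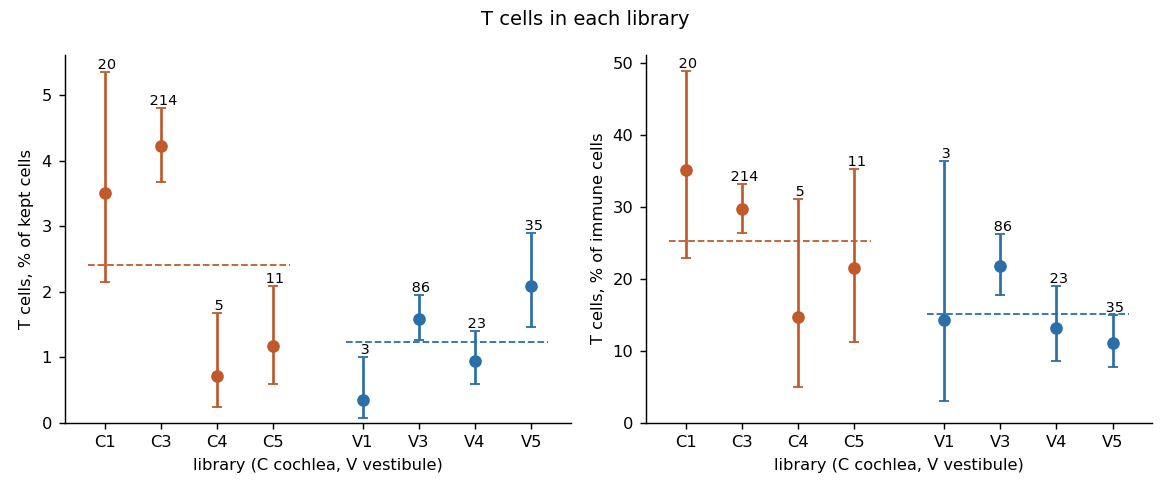
T cells as a percentage of all kept cells (left) and of immune cells (right) in each of the 8 libraries, with exact 95% binomial intervals as bars, the number of T cells above each point and the organ means as dashed lines. The cochlear mean was higher in both panels (2.40% against 1.24%, and 25.3% against 15.1%), while the libraries of the organs overlapped.

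The CD3 chains and the receptor chains, 5 of them the genes of the rule, were high in T cells and near 0 in the other kept cells. Levels below are the mean ± SD over the 7 libraries with at least 5 T cells, with libraries named in the order cochlea 1, 3, 4, 5 and vestibule 3, 4, 5. Cd3g, the CD3 gamma chain, stood at 1549, 1600, 1801, 2838, 1960, 1206 and 1274 CPM, a mean of 1747 ± 550 against 1.54 in the other kept cells. Cd3e, the CD3 epsilon chain, stood at 979 ± 435 CPM and Cd3d, the CD3 delta chain, at 836 ± 181. Cd247, the zeta chain that carries most of the signalling motifs and was not in the rule, was lower at 175 ± 85.9 CPM and had a UMI in 35.3% of T cells. Every library with at least 5 T cells held all 4 chains.

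Constant chains of both receptor types were present. Trbc2, a beta chain constant gene, stood at 1029 ± 300 CPM with a UMI in 82.9% of T cells, and Trbc1, the other one, at 448 ± 166. Trac, the alpha chain constant gene, stood at 516, 264, 643, 401, 429, 224 and 349 CPM, a mean of 404 ± 145. Trdc, the delta chain constant gene, which the rule did not use, stood at 788, 523, 836, 434, 779, 431 and 384 CPM, a mean of 596 ± 197. Trdc was thus above Trac in every one of these 7 libraries on this scale of 3' end counts, which were not divided by gene length. Trdc had a UMI in 42.1% of T cells and Trac in 46.9%, against 0.160% of macrophages for each. At 1000 UMIs drawn per cell, the shares were 31.5% for Trdc and 27.2% for Trac. The files' names for the gamma constant genes are Tcrg-C1, Tcrg-C2, Tcrg-C3 and Tcrg-C4, and of these Tcrg-C1 was at 222 ± 127 CPM.

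Of 10881 genes with at least 5 UMIs in T cells, 275 (2.53%) were at least 4 times higher in T cells than in the other kept cells by the median over libraries of log2((CPM + 10)/(CPM + 10)), and the median of all was -0.29. All 8 measured receptor genes and 14 of 16 receptor signalling genes were past that size, with medians of 5.68 and 3.44. The rule chose the cells by 5 of those 8 receptor genes, so that their count and median describe the rule in large part. Ptprc (CD45), the phosphatase of all white blood cells, was the most abundant of the signalling genes at 752 ± 168 CPM, ahead of its partner Ptprcap at 562 ± 129. The adaptor gene Lat, which links the receptor to downstream signalling, stood at 277 ± 72.4 CPM, and Skap1, an adaptor for integrin activation, at 220 ± 95.9. Both were near 0 in the other cells (1.30 and 0.782 CPM).

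Coreceptor transcripts were sparse. Cd8b1 stood at 109, 110, 0, 334, 101, 224 and 249 CPM, Cd8a at 91.0 ± 49.2 CPM and Cd4 at 30.5 ± 25.1 CPM. All 3 were at 0 in the 5 T cells of cochlea replicate 4, where 3 UMIs, the limit that a count of 0 allows, would be 193 CPM. Of the 397 T cells, 72 had a UMI of a Cd8 gene without Cd4, 38 had Cd4 without Cd8, 1 had both and 286 (72.0%) had neither. Macrophages, at a similar depth, had a UMI of Cd4 in 3.99% of cells against 9.82% of T cells (1.12% and 5.04% after thinning), and of Cd8a in none.

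The coreceptor makeup was compared in the 3 libraries of each organ with at least 10 T cells, where 3 against 3 cannot give an exact p below 0.1. Cells with Cd4 and without Cd8 were 5.00%, 7.94% and 0% of cochlear T cells (replicates 1, 3 and 5) and 15.1%, 13.0% and 11.4% of vestibular ones (replicates 3, 4 and 5). The organs did not overlap, but the vestibular T cells were also deeper (median 3001 UMIs against 1905), and with thinned cells the difference shrank from -8.88 points (exact permutation p = 0.1, adjusted p = 0.35) to -4.45. The organs then overlapped (exact permutation p = 0.3, adjusted p = 0.525). Cells with Cd8 and without Cd4 were 22.3% ± 12.2 of cochlear and 23.9% ± 3.55 of vestibular T cells (SD, n = 3 each, exact permutation p = 0.8, adjusted p = 0.933). Cells with neither were 73.3% ± 8.56 and 62.9% ± 2.12 (SD, n = 3 each, exact permutation p = 0.2, adjusted p = 0.467). With thinned cells they were 83.6% and 78.5%, a difference that shrank from 10.3 to 5.05 points, and the organs did not overlap (exact permutation p = 0.1, adjusted p = 0.35). Cells with Trdc were 35.0%, 48.1% and 27.3% in the cochlea and 40.7%, 26.1% and 28.6% in the vestibule, in overlapping ranges (exact permutation p = 0.6, adjusted p = 0.84).

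**Figure D2:**
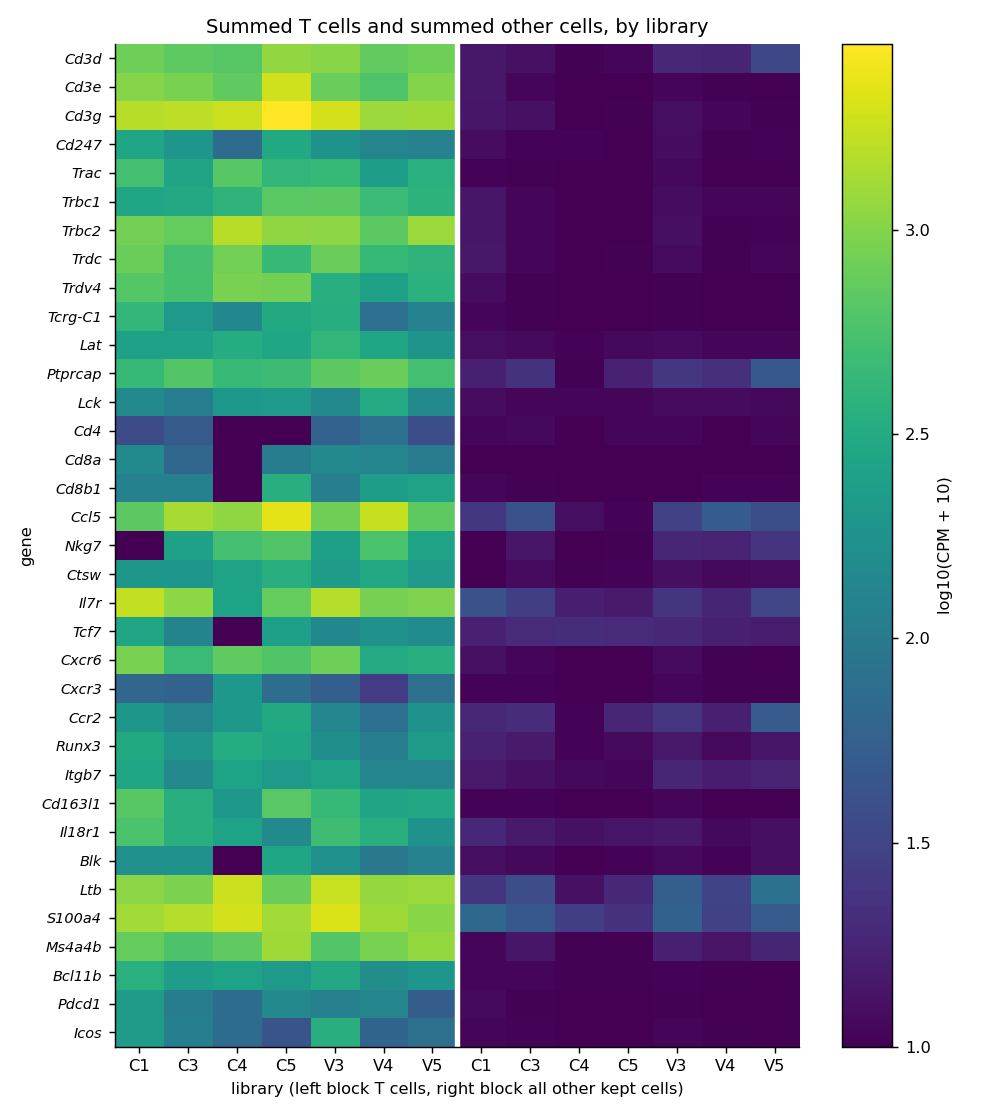
Levels of 35 genes as log10(CPM + 10) in the summed T cells (left) and in all other kept cells (right) of the 7 libraries with at least 5 T cells. The CD3 genes are higher in every T cell column than in the other cells, while coreceptors and trafficking receptors vary between libraries; the T cell columns rest on 5 to 214 cells each.

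T cells with Trdc and T cells with Trac carried different sets of genes. Trac without Trdc was seen in 144 cells, Trdc without Trac in 125, both in 42 and neither in 86, at median depths of 2379, 2135, 2353.5 and 1930.5 UMIs. The Trdc cells without Trac numbered 80 in cochlea replicate 3, 24 in vestibule replicate 3 and at most 9 in any other library. Because the groups are cut from the same counts, the contrasts between them are given as shares of cells with a UMI, with no test. The genes lie in 1 locus on chromosome 14 (mm10), with Trdc at chr14:54142851-54148868 and Trac at chr14:54220521-54224206, both on the plus strand and 71653 bases apart.

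None of the 125 Trdc cells without Trac had a UMI of Cd4 or of a Cd8 gene, whereas 55 of the 144 Trac cells without Trdc had Cd8, 23 had Cd4 and 1 had both. The Trdc cells shared a small set of receptor genes. Trdv4, a delta chain variable gene inside the same locus (chr14:54074905-54075515, plus strand), had a UMI in 78.4% of Trdc cells and 3.47% of Trac cells. Over the 4 libraries with at least 5 cells of each kind, it stood at 1259, 933, 383 and 1317 CPM in Trdc cells (cochlea 3, vestibule 3, 4 and 5) and at 10.2, 6.49, 42.7 and 0 CPM in Trac cells. Tcrg-V6, a gamma chain variable gene, had a UMI in 40.0% of Trdc cells and 1.39% of Trac cells. Of all 80 T cells with Tcrg-V6, 73 (91.3%) also had Trdv4. Tcrg-V6 was seen in 49.3% of T cells with Trdv4 and in 2.81% of those without it. Of the 148 T cells with Trdv4, 134 (90.5%) had Trdc. Trgv2, a gamma chain variable gene, was seen in 73 T cells, of which only 26 (35.6%) had Trdc. Of the other variable genes looked at, Tcrg-V4 was seen in 11 T cells, Tcrg-V1 in 14, Tcrg-V5 in 26 and Trdv1 in 2.

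Transcripts of the interleukin 17 programme of gamma delta T cells went with Trdc. Cd163l1 (SCART1), a scavenger receptor of gamma delta T cells, had a UMI in 74.4% of Trdc cells and 0.694% of Trac cells, and in none of the macrophages or hair cells. Blk, a kinase with a role in interleukin 17 producing gamma delta T cells, was seen in 54.4% and 1.39%. The receptor genes Il23r and Il1r1, through which interleukins 23 and 1 act, were seen in 36.0% against 5.56% and in 44.0% against 7.64%. Maf, a transcription factor of this programme, was seen in 72.8% and 31.2%, but also in 58.0% of macrophages. By level, all 5 were higher in Trdc cells in each of the 4 libraries compared. The cytokine gene Il17a itself was detected in only 25 T cells (6.30%), 19 of them with Trdc, and its level ran from 0 in vestibule replicate 4 to 285 CPM in vestibule replicate 5, where 29 of 40 UMIs came from 1 cell.

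Genes of other kinds also went with Trdc. Cxcr6, a chemokine receptor, was seen in 83.2% of Trdc cells and 33.3% of Trac cells, at 1049 ± 298 and 238 ± 175 CPM (SD, n = 4 libraries). Pdcd1, the inhibitory receptor PD-1, was seen in 39.2% and 4.86%, and Actn2, an actin crosslinker better known from muscle, in 57.6% and 8.33%. S100a4, a calcium binding protein of motile cells, was seen in 91.2% and 50.7%. Thinning to 1000 UMIs kept the direction and narrowed the gaps of Cxcr6 (62.4% against 21.5%), Pdcd1 (17.6% against 2.08%) and Actn2 (32.0% against 4.17%). That of S100a4 kept its direction and did not narrow (81.6% against 39.6%). By share of cells, all 4 genes were higher in the Trdc cells in each of the 4 libraries.

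Another set of genes went with Trac. Ms4a4b, a membrane protein of T cells, was seen in 84.7% of Trac cells and 6.40% of Trdc cells, at 1273 ± 302 and 97.7 ± 99.8 CPM (SD, n = 4 libraries). Lck, the kinase that starts receptor signalling, was seen in 48.6% and 3.20%, the adhesion receptor gene Cd2 in 47.2% and 1.60%, and the costimulatory receptor gene Cd28 in 38.9% and 1.60%. Nkg7, a protein of cytotoxic granules, was seen in 38.2% and 4.80%, and the chemokine gene Ccl5 in 29.9% and 3.20%. S1pr1, the receptor with which T cells leave tissue and lymph nodes, was seen in 35.4% and 6.40%. By share of cells, each of these was higher in the Trac cells in all 4 libraries. By level this did not hold for Ccl5, which in vestibule replicate 5 stood at 632 CPM in Trdc cells and 411 CPM in Trac cells. Cd3g, which the rule used, was seen in 98.4% of Trdc cells and 89.6% of Trac cells, and Trbc2, a beta chain gene also in the rule, in 80.0% of Trdc cells.

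The remaining T cells resembled one or the other kind. Of the 42 cells with both Trac and Trdc, 85.7% had Trdv4, 83.3% had Cd163l1 and 2.38% had Ms4a4b, and 1 had a Cd8 gene and none Cd4. Of the 86 cells with neither, 10.5% had Trdv4, 10.5% had Cd163l1 and 61.6% had Ms4a4b, and 16 had a Cd8 gene and 15 had Cd4. Thus the cells with both stood near the Trdc cells, and those with neither nearer to the Trac cells, in each of these 3 genes.

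**Figure D3:**
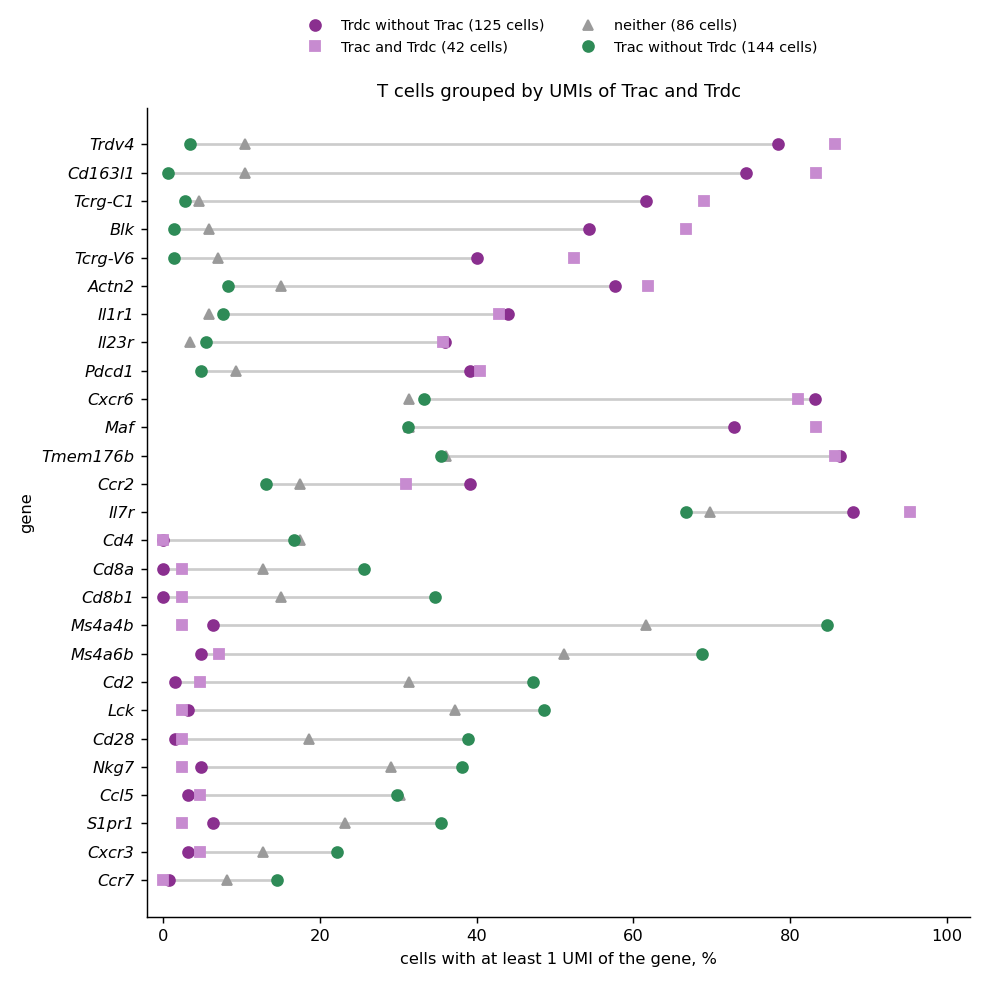
Share of cells with a UMI (horizontal axis, percent) of selected genes in T cells with Trdc without Trac (125 cells), both (42), neither (86) and Trac without Trdc (144). Trdv4, Cd163l1 and Cxcr6 lie to the right in the Trdc cells and those with both, and Ms4a4b, Lck and Cd2 in the Trac cells.

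Effector genes were led by a few transcripts. Of 19 cytotoxic genes, 7 were at least 4 times higher in T cells than in other cells (median of the list 1.19 on the log2 scale). Of all 10881 genes with at least 5 UMIs in T cells, 2.53% were, which is the share to set beside such counts for the lists below. The lists also count genes with fewer UMIs. Ccl5 was the most abundant at 680, 1348, 1094, 2237, 828, 1739 and 690 CPM, a mean of 1231 ± 586, from 18.9% of T cells. Nkg7 stood at 346 ± 221 CPM with a 0 in cochlea replicate 1, and Ctsw, a protease of cytotoxic lymphocytes, at 239 ± 57.3 CPM. Klrd1 (CD94), a receptor shared with natural killer cells, stood at 195 ± 276 CPM, a spread set by 772 CPM in cochlea replicate 4. Gzmb, the protease granzyme B, was at 1029 CPM in that library, where its 16 UMIs came from 1 of 5 cells, and at 51.7 CPM or less in the other 6. That library also held 8 UMIs of Ncr1, a natural killer cell receptor, and 17 of Fcer1g, each in 1 cell.

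Genes of naive and of resident T cells were both found in the summed T cells. Whether single cells held both was not tested. Il7r, the receptor for the survival cytokine interleukin 7, stood at 1685, 1080, 257, 735, 1499, 878 and 939 CPM, with a UMI in 77.1% of T cells. Tcf7, a transcription factor of naive and memory T cells, stood at 153 ± 87.9 CPM, and Klf2, which drives the genes for circulation, at 149 ± 90.9 CPM. In this list 3 of 10 genes were past the 4-fold size (median 1.59), and of 14 tissue residency genes 8 were (median 2.54), led by Cxcr6. Of all genes with at least 5 UMIs in T cells, 2.53% were. Runx3, a transcription factor of resident and CD8 T cells, stood at 220 ± 79.6 CPM, and Itgb7, an integrin chain that pairs with the chains for homing to epithelium, at 194 ± 68.7 CPM. Rgs1, a brake on chemokine receptor signalling, stood at 240 ± 294 CPM because cochlea replicate 4 had 901, and between 86.1 and 190 in the other 6.

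By the medians of their lists, exhaustion and regulatory genes were above the other cells, and type 2 genes were not. Singly, 8 of 13 exhaustion, 5 of 5 regulatory and 0 of 6 type 2 genes were above, as were 34.4% of all genes. Of 13 exhaustion and age-associated genes, 4 were past the 4-fold size (median 0.80), against 2.53% of all genes with at least 5 UMIs in T cells. Among these 4, Icos, a costimulatory receptor, stood at 127 ± 113 CPM and Pdcd1 at 112 ± 56.1 CPM. Cd44, an adhesion molecule of experienced T cells, and Tox, a factor of exhausted ones, stood at 83.1 ± 54.0 and 66.2 ± 19.6 CPM. Foxp3, the factor that defines regulatory T cells, had 12 UMIs in 2.77% of T cells, and of the 5 regulatory genes 3 were past the 4-fold size (median 2.53, sum 388 ± 125 CPM against 44.8 in other cells), led in level by Ikzf2 (Helios) at 144 ± 64.2 CPM. Ikzf2 was seen in 44.0% of Trdc cells without Trac and in 13.9% of Trac cells without Trdc (28.0% and 10.4% after thinning). Its level is thus not one of regulatory T cells alone. No type 2 gene was past the 4-fold size: Areg, Il5 and Il13 had no UMI, and Il4 had 3. Gata3 was the most abundant of this list at 61.0 CPM. The type 2 sum was 87.1 ± 34.4 CPM in cochlear T cells against 521 in the other cochlear cells. In the vestibule it lay the other way, at 37.6 ± 17.8 CPM against 8.35. In the type 17 list 6 of 11 genes were past the 4-fold size (median 2.69), led by Maf at 427 ± 282 CPM, Cd163l1 at 402 ± 191 CPM and Il18r1, the interleukin 18 receptor, at 328 ± 158 CPM.

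Cxcr6 dominated the receptors for migration. It stood at 897, 462, 708, 601, 805, 310 and 334 CPM, a mean of 588 ± 229, with a UMI in 53.7% of T cells and in no macrophage, B lineage cell, granulocyte or hair cell. The lowest were vestibule replicates 4 and 5, and no library lacked it. Selplg (PSGL-1), the ligand of the selectins on vessel walls, stood at 398 ± 139 CPM. Ccr2, the receptor for the chemokines Ccl2 and Ccl7, stood at 167 ± 73.8 CPM, Itgb2, the beta 2 integrin chain, at 147 ± 85.3 CPM and S1pr1 at 121 ± 71.3 CPM.

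The other receptors were lower and often missing from single libraries. Cxcr3 stood at 54.4, 50.3, 193, 66.8, 45.8, 17.2 and 71.2 CPM, a mean of 71.2 ± 56.5, and the 193 CPM of cochlea replicate 4 were 3 UMIs. In macrophages 2.08% of cells had a UMI of it (0.639% after thinning, against 6.80% of T cells). Ccr7, the lymph node homing receptor, stood at 36.5 ± 41.7 CPM. Cxcr4, the receptor for Cxcl12, stood at 22.7 ± 27.6 CPM, Ccr9, a gut homing receptor, at 22.8 ± 28.1 CPM, and Ccr10, a skin homing receptor, at 5.88 ± 9.76 CPM. S1pr5 had no UMI in T cells. In all, 5 of the 12 receptors were past the 4-fold size (median 1.46), and 11 of 12 were above the other cells. Of all genes with at least 5 UMIs in T cells, 2.53% and 34.4% were.

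Ligands for these receptors were found mainly outside T cells, and none of 12 was 4 times higher in T cells by the median over libraries. Icam1, the most abundant of them in T cells, lay the other way. It stood at 68.5 and 40.0 CPM in cochlear and vestibular T cells, 9.38 and 5.14 in other cells and 36.2 and 32.4 in macrophages. Cxcl16, the ligand of Cxcr6, stood at 199 ± 102 CPM in macrophages (SD, n = 8 libraries, range 72.5 to 413), at 20.8 ± 11.8 in the cells outside the named classes, at 3.41 ± 5.86 in T cells and at 1.12 ± 1.06 in hair cells. Ccl2, the main ligand of Ccr2, had no UMI in T cells and stood at 120 ± 117 CPM in macrophages. Ccl8 stood at 400 ± 637 CPM in macrophages, from 0 to 1909. Cxcl12 was highest in the cells outside the named classes, at 95.1 ± 30.0 CPM. The Cxcr3 ligands Cxcl9 and Cxcl10 were low on average in macrophages, at 16.5 ± 29.0 and 15.9 ± 40.0 CPM. Each had an SD above its mean, so the libraries differed widely.

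**Figure D4:**
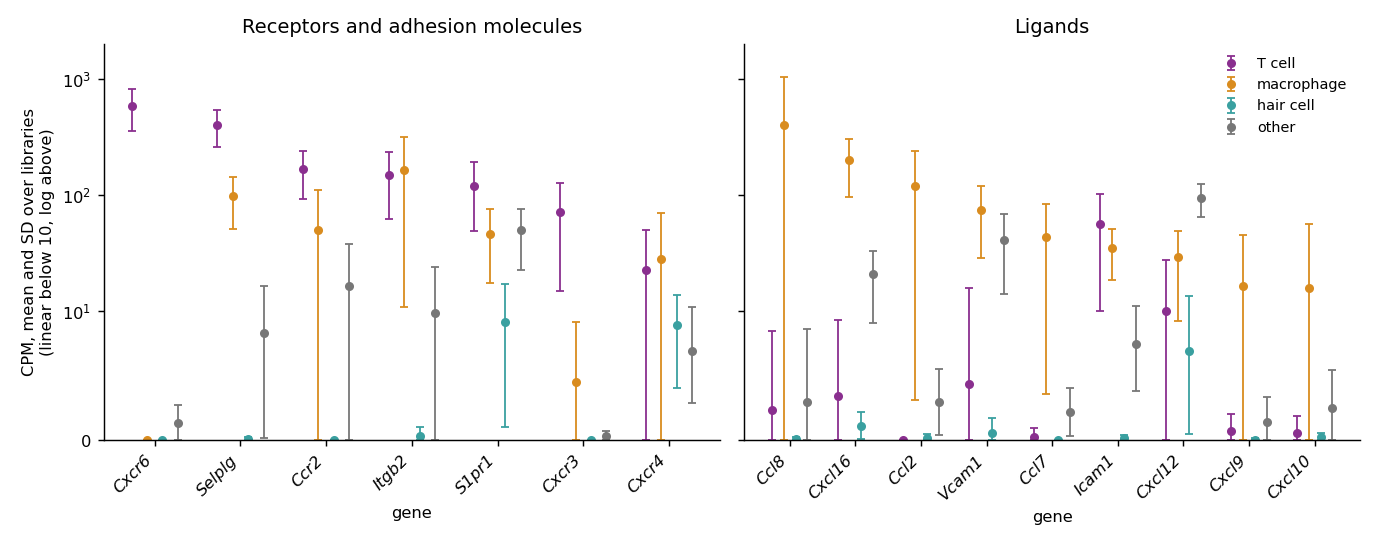
Trafficking receptors and their ligands in T cells, macrophages, hair cells and the remaining cells, as mean CPM with SD over libraries on an axis that is linear near 0 and logarithmic above. Cxcr6 is at 588 CPM in T cells and at 0 in macrophages and hair cells, and Cxcl16 is highest in macrophages at 199 CPM.

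Among genes outside the lists, those with the highest level in T cells over other cells were ranked if at least 20% of T cells had a UMI, which 1461 genes met. Ms4a4b came first at 850 ± 271 CPM, followed by Trdv4 at 552 ± 261 CPM and by AW112010, a transcript induced in activated lymphocytes, at 1267 ± 619 CPM. Ltb, the membrane anchor of lymphotoxin, stood at 1238 ± 395 CPM in T cells, but 72.2% of granulocytes and 65.1% of B lineage cells also had a UMI. S100a4 had the highest level of these 20 genes, at 1490 ± 385 CPM. Gimap3 and Gimap1, GTPases of lymphocyte survival, stood at 546 ± 305 and 358 ± 95.9 CPM. Il2rg, the chain shared by the interleukin 2 and 7 receptors, had the smallest SD of the 20, at 259 ± 30.8 CPM. The other 12 were Hcst, Bcl11b, Tcrg-C1, Cd226, Rinl, Thy1, Ms4a6b, Podnl1, Krt83, Fxyd5, Laptm5 and Tcrg-C4.

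Sums over interferon, stress and cell cycle genes varied between libraries. The interferon response genes summed to 749 ± 106 CPM in T cells and 749 in other cells, with 1 of 12 past the 4-fold size, and the T cell sum was 80.6% to 155% of that of other cells in the same library. The dissociation stress genes, immediate early genes that tissue handling can induce, summed to 1376 ± 376 CPM against 1260, with none of 12 past it and Jund as the most abundant at 651 ± 232 CPM. In 6 of the 7 libraries this sum was above that of other cells, at most 284% of it, and in cochlea replicate 4, where the other cells stood at 3561 CPM, it was 50.6%. The cell cycle genes summed to 340 ± 343 CPM against 382, or to 219 ± 132 CPM without vestibule replicate 4, which stood at 1068. Their sum was 262% of that of other cells in that library and 23.9% to 89.6% in the other 6. Mki67, a marker of cycling cells, had a UMI in 2.27% of T cells.

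Markers of macrophages, B lineage cells, hair cells and stroma were summed in the same way. The 9 macrophage genes, of which 5 were in the rule, summed to 101 ± 105 CPM in T cells against 1489 in other cells, with Lyz2 the most abundant at 72.2 CPM. The 9 B lineage genes summed to 118 ± 123 CPM against 1460 (76.3 ± 57.1 without cochlea replicate 3, which stood at 370), with Cd79a (in the rule), Ms4a1, Pax5 and Jchain at 0 and Ebf1 the most abundant. The 9 hair cell genes, of which 6 were in the rule, summed to 60.1 ± 42.3 CPM against 1534, with Pou4f3 at 0 and Myo6 the most abundant. The 12 stromal and epithelial genes summed to 4452 ± 4098 CPM against 31351, with Col1a1 and Oc90 at 0. The largest of them was Ptgds, a prostaglandin synthase abundant in the inner ear, at 2891 CPM in T cells, and 77.6% of T cells and 82.4% of macrophages had a UMI of it; the part of free RNA in this was not tested. Of the 10 natural killer and innate lymphoid genes, 1 (Il2rb) was past the 4-fold size, Klri2, Klra4 and Klra8 were at 0, and the sum was 740 ± 832 CPM against 460 in other cells, led by Fcer1g. Cochlea replicate 4 stood at 2573 CPM, with 39 of its 40 UMIs in 1 cell, and without that library the sum was 435 ± 215 CPM.

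A few T cells held most of the transcripts of granulocytes, red cells and antigen presentation. The 9 granulocyte genes had 6386 UMIs in T cells, of which 99.2% were in 3 cells, while 353 of 397 T cells had none. The 5 erythroid genes had 4998 UMIs, with 92.9% in 8 cells, and 175 T cells had none. The MHC class II genes (H2-Aa, H2-Ab1, H2-Eb1 and Cd74), which present antigen to CD4 T cells and in mice are not usual in T cells, had 1013 UMIs, with 97.1% in 4 cells. In cochlea replicate 1, 1872 of 1906 erythroid UMIs came from 1 cell of 2300 UMIs, and the summed level of 51808 CPM was 986 without it. In cochlea replicate 3 the granulocyte sum of 8552 CPM was 2410 without its top cell. Whether such barcodes held 2 cells was not tested.

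**Figure D5:**
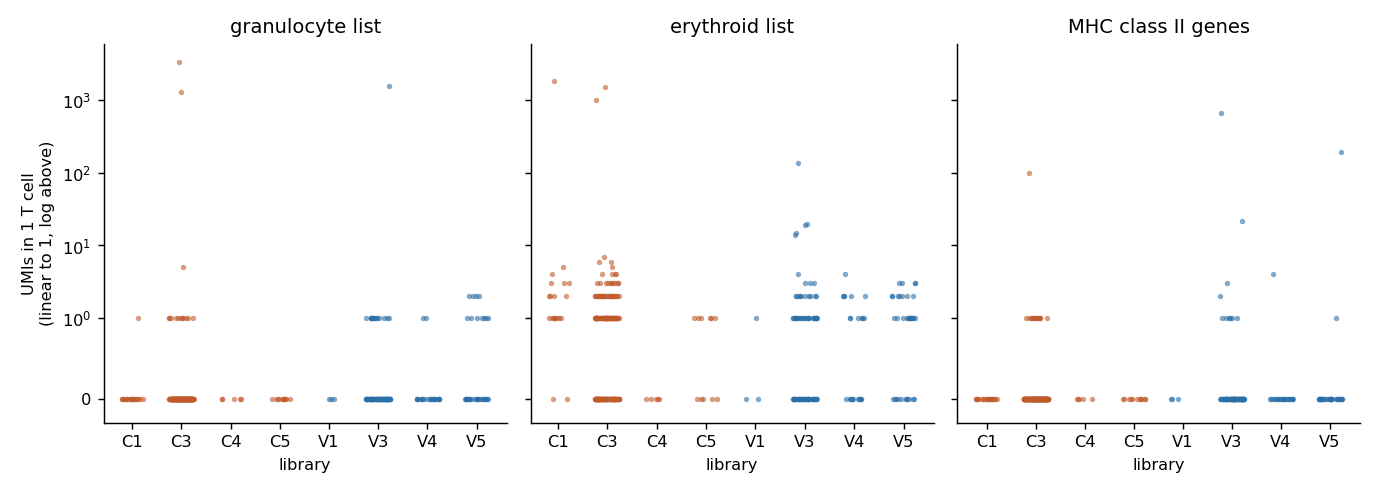
UMIs per T cell of the granulocyte list, the erythroid list and the MHC class II genes in each library, 1 point per T cell, on an axis that is linear near 0 and logarithmic above. Most T cells sit at or near 0, and 3, 8 and 4 cells with at least 10 UMIs hold 99.2%, 92.9% and 97.1% of the UMIs.

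No gene passed the test between the T cells of both organs. UMIs were summed over the T cells of a library and compared with edgeR's quasi-likelihood test in 4 cochlear and 3 vestibular libraries with at least 5 T cells. Of 761 genes tested, 0 (0%) had a Benjamini-Hochberg adjusted p under 0.05, 25 had an unadjusted p under 0.05, and DESeq2 also called 0. In 34 genes (4.47%) the libraries of the organs did not overlap. The median log2 difference of all 761 was 0.04, and that of the 8 receptor genes was 0.24, with none called. Only 29 of the 115 genes on the T cell lists were abundant enough to be tested.

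Trdv4 had the smallest unadjusted p of the 761 genes. It stood at 625, 537, 901 and 868 CPM in cochlea replicates 1, 3, 4 and 5 and at 334, 241 and 356 CPM in vestibule replicates 3, 4 and 5, so that the organs did not overlap in the 7 libraries tested. In vestibule replicate 1, whose 3 T cells were too few for the test, it stood at 645 CPM, above cochlea replicates 1 and 3. The means were 733 ± 179 and 310 ± 60.9 CPM, a log2 difference of 1.18 with an SE of 0.27, which did not pass the adjustment (edgeR quasi-likelihood, Benjamini-Hochberg adjusted p = 0.742). Trdc, its constant gene, differed by 0.24 on the log2 scale (SE 0.34) and Cxcr6 by 0.40 (SE 0.39), in overlapping ranges. With single libraries left out, these ran from 0.02 (without vestibule replicate 4) to 0.66 (without 3) for Trdc and from 0.10 to 1.03, without the same libraries, for Cxcr6, with none called. Ptgds lay the other way, at 1083 ± 1317 CPM in cochlear and 5303 ± 2880 CPM in vestibular T cells (log2 difference -1.98, SE 0.89, edgeR adjusted p = 0.966). The other kept cells lay the same way, with 4964 and 41736 CPM, and so did the macrophages, with 1135 and 10150.

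The organ difference of T cells was then set against that of macrophages from the same libraries, in 1 model with an interaction term. Of 3307 genes, 6 (0.181%) had an adjusted p under 0.05, and in each of the 6 most UMIs came from 1 or 2 T cells of a library. The granulocyte granule genes Ngp, Camp and Ltf were higher in cochlear T cells relative to macrophages, and the MHC class II genes H2-Aa, H2-Ab1 and H2-Eb1 were lower, 3 genes (0.0907%) in each direction. The contrast has a macrophage side too: in the macrophages of the cochlea and the vestibule, Ngp stood at 0.525 and 465 CPM, Camp at 0.525 and 602 and Ltf at 0.175 and 102.5, so that these calls are not a T cell difference alone. The 3 granule genes are 3 of the 6 granulocyte list members tested, and none of the 72 tested genes on the T cell lists was called.

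Ngp had 258 of its 260 T cell UMIs in 2 cells of cochlea replicate 3, and Camp all 298 in 2 cells of that library. Ltf had 60 UMIs in 2 of its cells, against 1 UMI in vestibule replicate 5. These genes were at 0 in the T cells of the other 3 cochlear libraries. H2-Aa stood at 0, 28.8, 0 and 0 CPM in the cochlear and at 488, 34.4 and 185 CPM in the vestibular T cells, the only 1 of the 6 whose organs did not overlap (log2 difference -3.81, SE 0.62, edgeR quasi-likelihood with Benjamini-Hochberg adjusted p = 0.0149). With single libraries left out, the H2-Aa difference ran from -8.33 (without cochlea replicate 3) to -3.55. None of the 3 H2 genes was called without vestibule replicate 3 (edgeR adjusted p from 0.218 to 0.410) or without vestibule replicate 5 (0.149 to 0.348), and H2-Ab1 was also lost without cochlea replicate 3 (0.0501). Of the 149 H2-Aa UMIs in vestibule replicate 3, 146 came from 1 cell, and all 26 in vestibule replicate 5 from 1 other. Without the 10 T cells with over 5% of their UMIs in the granulocyte or the erythroid list, or with at least 10 MHC class II UMIs, none of the 6 genes was called, 3 of them were still tested, and the H2-Aa difference was 0.000417. In that fit 1 gene of 3306 was called, the beta globin gene Hbb-bt (log2 difference 5.42, edgeR adjusted p = 0.0423). Cochlea replicate 3 held 127 of its UMIs, 115 of them in 1 cell, and the other libraries 0 to 5. The macrophages, on the other side of this contrast, held 2, 1207, 6 and 36 UMIs of it in the cochlear and 722, 621 and 2217 in the vestibular libraries, not divided by depth. The T cell with the most erythroid UMIs in that library, 1549 of 43906, was under the 5% limit and was kept.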

How the data were processed

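Raw counts of UMIs per gene and barcode were used as deposited; the authors made them with Cell Ranger from reads of droplet (10x) 3' libraries aligned to mm10, in version 5.0.1 (replicates 1 and 2) or 6.1.2 (replicates 3 to 5) by the deposited headers. The submitters' processing notes also name Seurat. The labels call the libraries biological replicates; each pools mice, and p-values measure the spread between libraries. Replicates 1, 3, 4 and 5 held 2738036, 26974948, 5349308 and 5452292 UMIs in the cochlea and 4150642, 24104850, 10318267 and 9482901 in the vestibule. The T cells that replicates 1 and 2 share correlated at 0.962 (cochlea) and 0.982 (vestibule) by the median, so the pair counted as 1 sample.

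Members and gene lists were chosen with earlier results of these data known. Macrophages, B lineage cells, granulocytes and hair cells were called by their own marker genes per cell; no clustering and no doublet caller was used. Levels are CPM of summed UMIs, with 10 added on the log scale. Summed T cell counts were tested with edgeR 4.0.16 (TMM, its filter on low counts, quasi-likelihood, Benjamini-Hochberg at 0.05) in R 4.3.3. Shares were tested with exact permutation tests over libraries that went through every split, and the exact binomial intervals came from scipy 1.17.1. In 1 simulated draw, where 200 genes were given a log2 change of 2, the organ test recovered 122 of 126 changed genes it tested (96.8%, with 10.3% of calls false) and the interaction test 56 of 197 (28.4%, 1.75% false). The draw gave every gene the same dispersion and took the changed genes from the more abundant ones. These shares therefore do not measure what the tests would find in the real libraries.

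Genes named are the receptor, coreceptor and trafficking receptor lists, up to 4 of the highest mean CPM in other T cell lists, the 20 leading genes outside the lists and, in each contrast, up to 10 called genes per direction with no overlap between the organs' libraries. Genes set out for Trdc and Trac cells, carriers and ligands were chosen after their values were seen. Intervals are exact binomial at 95% and cover counting error only, as does the limit of 3 counts for a count of 0. Coordinates of genes come from GENCODE M21 (GRCm38). Alternatives were DESeq2 1.42.0, no TMM, no filter, other T cell and UMI limits, thinning to 1000 UMIs, the mean of replicates 1 and 2, leaving out each library and, chosen after seeing the data, leaving out T cells over 10000 UMIs, replicate 3 of both organs or the cells rich in foreign transcripts. Cxcl11 was not found among the files' symbols, and Ccl19 and Ccl21a were not described singly because their symbols occur more than once. Some members of the lists are counted with their list but not reported singly here.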

Additional observations from a re-analysis of the deposited data

Results flagged for a closer look

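The granulocyte list summed to 8552 CPM in the T cells of cochlea replicate 3, against 0 to 27.2 CPM in the other cochlear libraries, a gap wider than chance gives in about 19 of 20 groups of 4. The erythroid list summed to 51808 CPM in cochlea replicate 1, against 0 to 4966 in the other cochlear libraries. These were 2 of 28 groups examined, and chance marks about 1 in 20. The organ difference of T cells differed from that of macrophages by the interaction test in 6 genes: on the log2 scale (cochlea minus vestibule, T cells minus macrophages) by 14.62 for Ngp, 18.46 for Camp, 12.05 for Ltf, -3.81 for H2-Aa, -3.50 for H2-Ab1 and -3.89 for H2-Eb1. For Ngp, Camp and Ltf part of this size lies in the macrophages, which held 465, 602 and 102.5 CPM in the vestibule against 0.525, 0.525 and 0.175 in the cochlea. All 6 genes had T cell libraries at 0, the H2 genes in 3 of 4 cochlear ones, so that the fitted size depends on the prior count and is no bound.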

How the results depend on the processing

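Of 81 other settings of the share comparisons, 76 kept the direction, 4 turned, and the difference in cells with both Cd4 and Cd8 was 0 without cochlea replicate 3. A p was computed in 50 of the 81, with no adjusted p under 0.05 (lowest 0.114); the other 31 gave a value with no test. The difference in cells with Cd8 and without Cd4 turned without cochlea replicate 1 (2.04 points) or 3 (1.83), in a range of -8.65 to 2.04 over single libraries left out. That in cells with Trdc turned without cochlea replicate 3 (-0.649, range -0.649 to 9.78) and for Trdc without Trac in thinned cells (-2.81); thinning alone gave 0.483, and Trdc without Trac in unthinned cells -1.60 (exact permutation p = 0.9). The count of genes called between the organs was 90 of 15082 without the filter on low counts and 0 to 4 with single libraries left out (4 without vestibule replicate 4). With the replicate number as a block it was 1; the numbers were not taken to pair the samples, since 1 of the correlations of deviations (0.252, 0.080 and 0.321 for replicates 3, 4 and 5) was under 0.1, although each of these libraries correlated best with its own number. With the block, the T cell share of immune cells was higher in the cochlea in 4 of 4 pairs (10.2 points, exact permutation p = 0.125, the smallest that 4 pairs allow), and the subset shares had too few shared numbers for a block. Against macrophages the count of 6 became 0 with DESeq2, 31 of 17782 without the filter, 1 among genes at least as high in T cells, 11 without replicate 3 of both organs, 1 without the 10 carrier cells, and 3 to 17 with single libraries left out: 17 without cochlea replicate 1, 11 without 3, 13 without 5, 13 without vestibule replicate 4 and 3 without 5. All 6 genes called in the reported fit were no longer called by DESeq2. H2-Aa was 0.000417 without the carriers. Among genes not called, Cxcr6 (-0.000568) and Trdc (-0.145) turned without the filter and Tcrg-C1 (-0.0799) with the block; the cause was not tested. Depth is a limit: 1 UMI is worth 64.3 CPM in the T cells of cochlea replicate 4, so that genes under 193 CPM may be missed there.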
